A study of Mus musculus with 6 samples.

Results

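The secreted Wnt antagonists of the Sfrp and Dkk families and Wif1 were followed in cultured mouse embryonic kidneys exposed to an inhibitor of histone deacetylases or to its inactive relative. The genes were taken by name (Sfrp1, Sfrp2, Frzb, Sfrp4, Sfrp5, Dkk1, Dkk2, Dkk3 and Wif1), with every array probe that carries one of these names and is not a control spot. This gave 11 probes for 9 genes, among 41174 probes in all. Sfrp1 and Dkk1 each had 2 probes and the other genes 1. Every one of the 11 probes was well above background in both channels of all 6 arrays, and none was saturated. Such a signal above background was common, at 36808 of the 41174 probes.

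Kidneys of CD1 mouse embryos at E13.5 were grown on filters over DMEM/F12 with 10% serum and received either Scriptaid or Nullscript, both at 2.0 µg/ml, for 6 hours. Scriptaid is a hydroxamic acid that blocks histone deacetylases (HDACs), and Nullscript is a related molecule used as its inactive control. The kidneys of a pair were given different drugs. All kidneys therefore share strain, age, medium and time in drug, and no kidney without a drug was analysed here. The labels number 3 biological replicates, and the number of embryos in each was not given in the sources used here. RNA of both drugs was hybridised together, in different dyes, and each replicate was measured on 2 arrays with the dyes swapped, so that Scriptaid was in Cy3 on 3 arrays and in Cy5 on the other 3. The series text mentions a dye swap on part of 4 arrays, while the samples themselves list 6 arrays and a dye for each channel. Replicates 1 and 2 shared slide 1 and replicate 3 was on slide 2.

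The drug names carry a doubt that touches every direction below. Genes known from other cells to rise with HDAC inhibitors were all higher under the Nullscript label (5 of 5), and those known to fall were all higher under the Scriptaid label (4 of 4). H1f2, a linker histone gene, had a log2 ratio (Scriptaid label over Nullscript label) of -1.72 ± 0.06 (SD, n = 3). Its relative H1f0 was 2.00-fold higher under the Nullscript label, with -0.82 and -0.80 by other probes, and close copies of histone genes may share a probe. The kinase inhibitor gene Cdkn1a had -0.91 ± 0.16, Gsn, which severs actin filaments, -1.04 ± 0.14, and Txnip, which binds thioredoxin, -1.01 ± 0.08. On the other side stood Ccnd1 (cyclin D1) at 1.90 ± 0.19, Myc at 1.71 ± 0.28, Tyms, which makes thymidylate, at 0.73 ± 0.03, and Ccnb1, a mitotic cyclin, at 0.59 ± 0.12. Other probes of Myc lay between 0.30 and 1.76, and those of Tyms between -0.02 and 0.74. All 9 passed the test described below (limma adjusted p of 0.00107 or lower). Of all 26498 genes tested, 6144 passed as higher under the Nullscript label and 5889 as higher under the Scriptaid label. The 9 genes lay opposite to the labels under each of the 15 processing alternatives, which use the same arrays. Their lists were chosen with earlier results of these data known. Results follow the dye fields and are given as higher under the Scriptaid label or under the Nullscript label, which mean the channel that carries that drug name. With the names exchanged, all signs below would be turned.

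Wnt proteins are secreted signals that bind frizzled receptors together with the co-receptors Lrp5 and Lrp6 and so stabilise β-catenin in the receiving cell. The Sfrp proteins, among them Frzb, carry a cysteine-rich domain like that of the frizzled receptors and bind Wnt proteins outside the cell. Dkk1 and Dkk2 bind Lrp5 and Lrp6, with Kremen proteins as partners, while Dkk3 is a divergent relative, and Wif1 binds Wnt proteins through a domain of its own. In the embryonic kidney, Wnt9b from the ureteric bud and Wnt4 from the condensing mesenchyme drive the formation of nephrons, and antagonists are made in the tissue around them.

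Promoter sequences are shown first, for members of either side that had a window. The RefSeq promoter table (build GRCm38.p6) held 6 of the 9 genes, namely Sfrp2, Frzb, Sfrp5, Dkk1, Dkk2 and Wif1, and Sfrp1, Sfrp4 and Dkk3 are named only. The 250 bases before the listed start are given 5′ to 3′ on the strand of the gene, for the 4 genes that were clearly higher under the Scriptaid label and for Wif1, which was higher under the Nullscript label. Capitals mark matches, on either strand, to GGGCGG, which is known as the GC box, and to TATAAA, which is known as the TATA box. Matches to CCAAT and, as the palindromic E-box, to CACGTG are in capitals as well. The capitals further mark CTTTGA, as the first, and CTTTGT, as the second, of the cores bound by the TCF/LEF factors that act with β-catenin. The TCF/LEF cores share their first letters and cannot match at the same place. The windows are chr19:30549497-30549746 (minus strand) for Dkk1, chr3:132085042-132085291 (plus) for Dkk2, chr3:83766071-83766320 (plus) for Sfrp2, chr2:80447397-80447646 (minus) for Frzb and chr10:121033754-121034003 (plus) for Wif1.
Dkk1: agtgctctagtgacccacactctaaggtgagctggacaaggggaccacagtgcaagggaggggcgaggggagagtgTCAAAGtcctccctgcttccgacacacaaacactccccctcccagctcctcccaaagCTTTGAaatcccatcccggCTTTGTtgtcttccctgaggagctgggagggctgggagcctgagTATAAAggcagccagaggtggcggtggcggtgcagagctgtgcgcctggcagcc
Dkk2: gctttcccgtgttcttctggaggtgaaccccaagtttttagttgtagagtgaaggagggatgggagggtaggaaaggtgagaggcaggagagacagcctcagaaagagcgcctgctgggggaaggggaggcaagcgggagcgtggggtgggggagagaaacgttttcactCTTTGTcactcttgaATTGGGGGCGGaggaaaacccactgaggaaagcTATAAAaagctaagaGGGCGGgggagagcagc
Sfrp2: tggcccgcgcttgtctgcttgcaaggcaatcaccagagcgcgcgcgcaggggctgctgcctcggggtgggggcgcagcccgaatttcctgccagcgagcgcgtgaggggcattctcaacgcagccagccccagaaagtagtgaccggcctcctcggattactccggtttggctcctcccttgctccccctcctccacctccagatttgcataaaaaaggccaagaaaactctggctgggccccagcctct
Frzb: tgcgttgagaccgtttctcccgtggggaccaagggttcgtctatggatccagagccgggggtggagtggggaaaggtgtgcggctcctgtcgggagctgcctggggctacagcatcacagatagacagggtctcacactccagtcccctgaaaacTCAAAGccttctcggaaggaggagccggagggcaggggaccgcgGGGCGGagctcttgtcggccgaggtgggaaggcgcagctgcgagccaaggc
Wif1: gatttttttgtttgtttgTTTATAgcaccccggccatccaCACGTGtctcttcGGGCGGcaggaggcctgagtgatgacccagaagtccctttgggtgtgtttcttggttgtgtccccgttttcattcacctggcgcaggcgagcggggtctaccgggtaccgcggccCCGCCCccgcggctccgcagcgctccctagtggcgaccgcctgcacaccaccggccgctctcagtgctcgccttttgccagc

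The windows differed in their letters. Positions are counted back from the listed start and give the leftmost base of a match. In Dkk1, TATAAA stood at -54, CTTTGA at -174 on the other strand and at -117, and CTTTGT at -98. In Dkk2, TATAAA stood at -32, GC boxes at -60 and -17, CCAAT at -65 on the other strand, next to the first of them, and CTTTGT at -80. Frzb held a GC box at -51 and CTTTGA at -95 on the other strand, and Sfrp2 held none of the 6 motifs. Wif1 held GC boxes at -197 and, on the other strand, -82, an E-box at -210 and TATAAA at -232 on the other strand. The window of Sfrp5 (chr19:42202253-42202502, minus), which is not printed, held a GC box at -43. So the TCF/LEF cores fell in Dkk1, Dkk2 and Frzb and not in Sfrp2, Sfrp5 or Wif1. The share of all windows that hold either core is not given here. Sfrp1 and Dkk3 had no window, so Wif1 alone stands for the genes higher under the Nullscript label. No contrast between the sides can be drawn from it. Over 32841 windows of the same length, 32.7% held the GC box, 12.4% TATAAA, 33.9% CCAAT, 6.02% CACGTG, 13.8% CTTTGA and 16.5% CTTTGT. The number of CpG steps was 21 in Wif1, 16 in Sfrp2 and in Frzb, 13 in Sfrp5, 7 in Dkk2 and 6 in Dkk1, and the median over all windows was 6. A match is a run of letters and no evidence of a bound factor.

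Of the 9 antagonists, 5 were higher under the Scriptaid label, 3 were higher under the Nullscript label and 1, Sfrp5, did not pass. Dkk1 and Dkk2 differed most in the first direction, by 2.87-fold and 2.86-fold, followed by Sfrp2 and Frzb, and in the other direction stood Sfrp1, by 2.06-fold with its brighter probe and 1.64-fold with its dimmer one, and Dkk3, by 1.59-fold. The members thus split within both families. The arrays measure whole kidneys, so that fewer cells of a type and less RNA per cell cannot be told apart. The test was limma on the mean log2 ratio of the 3 replicates, with p-values adjusted by Benjamini-Hochberg over all 39405 probes tested and a threshold of 0.05. Of the 11 probes, 10 passed, 6 higher under the Scriptaid label and 4 under the Nullscript label. Over all probes tested 45.2% passed, 23.5% and 21.8% in these directions, so that a passing probe alone is common on these arrays. By the brightest probe 8 of the 9 genes passed, beside 45.4% of the 26498 genes tested. A difference of at least 2-fold that passed was found for 4 of the 11 probes, beside 2.63% of all probes, and these belong to Dkk1, Dkk2 and Sfrp1.

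**Figure D1:**
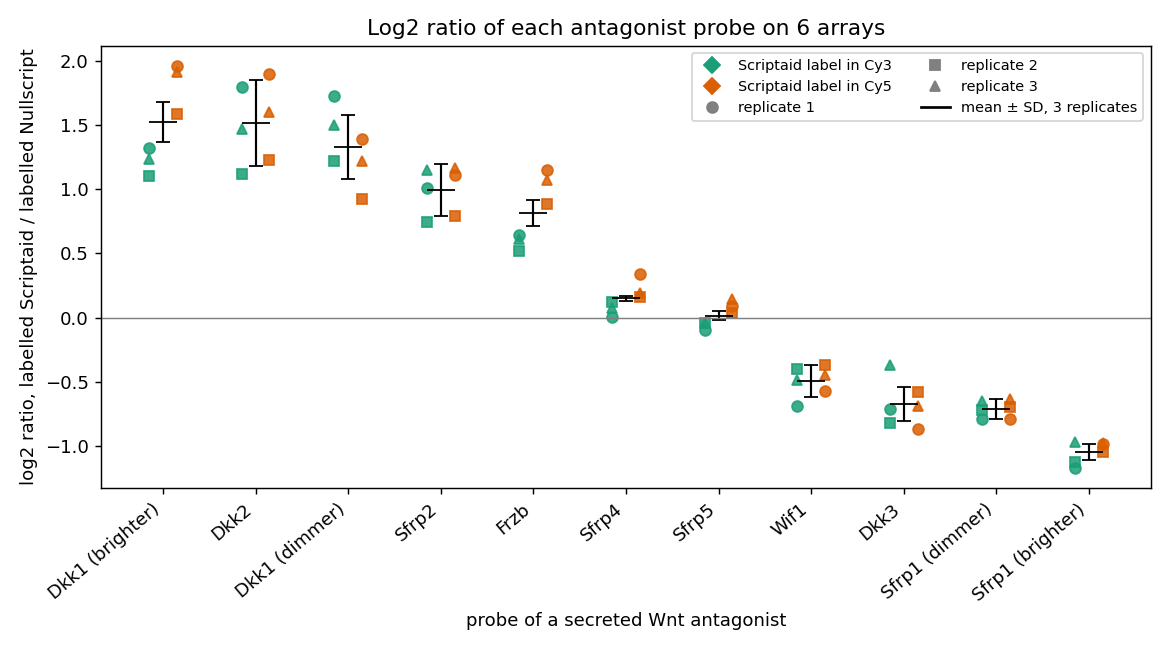
Log2 ratio of the Scriptaid label over the Nullscript label (y axis) for each of the 11 antagonist probes (x axis), with 1 point per array coloured by dye orientation and shaped by replicate, and bars for the mean ± SD of the 3 replicates. Every point of Dkk1, Dkk2, Sfrp2 and Frzb lies above 0.5, every point of Sfrp1, Dkk3 and Wif1 lies below -0.3, and the points of Sfrp5 lie on both sides of 0.

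Among the Sfrp family, Sfrp2 and Frzb were higher under the Scriptaid label. Sfrp2, which is made in the kidney mesenchyme and early nephrons, had log2 ratios of 1.01, 0.74 and 1.15 in replicates 1, 2 and 3 with the Scriptaid label in Cy3, and of 1.11, 0.80 and 1.16 with the Scriptaid label in Cy5. Its normalised log2 intensity was 12.83 to 13.76 under the Scriptaid label and 12.08 to 12.65 under the Nullscript label. These ranges did not overlap, though the share of all probes without overlap is not given, here or for the antagonists below. Both arrays of replicate 2 gave the smallest ratios. The mean was 1.00 ± 0.20 (SD, n = 3; limma adjusted p = 0.000768), just short of the 2-fold line.

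Frzb, the Wnt-binding protein first known from cartilage, had log2 ratios of 0.64, 0.52 and 0.62 in replicates 1, 2 and 3 with the Scriptaid label in Cy3, and of 1.15, 0.88 and 1.07 with the Scriptaid label in Cy5. Its intensities were 9.58 to 10.33 under the Scriptaid label and 9.05 to 9.45 under the Nullscript label, on the log2 scale, and did not overlap. All 3 ratios of the first orientation were below all 3 of the second. The mean over replicates was 0.81 ± 0.10 (1.76-fold, limma adjusted p = 0.000358), and replicate 2 again had the smallest value.

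Sfrp1 lay on the opposite side. This antagonist, made in the kidney stroma, is bright on the array by one probe and dim by the other. The brighter probe had log2 ratios of -1.17, -1.12 and -0.97 in replicates 1, 2 and 3 with the Scriptaid label in Cy3, and of -0.98, -1.05 and -0.97 with the Scriptaid label in Cy5. Its log2 intensity was 12.29 to 13.03 under the Scriptaid label and 13.41 to 14.05 under the Nullscript label, without overlap. The 6 arrays lay within a narrow band, and the mean was -1.04 ± 0.06 (2.06-fold higher under the Nullscript label, limma adjusted p = 0.000208). The dimmer probe had -0.79, -0.70 and -0.64 as means of the arrays of replicates 1, 2 and 3, with a mean of -0.71 ± 0.07 (limma adjusted p = 0.000329). The probes of Sfrp1 went the same way, with a difference (brighter minus dimmer) of -0.33 ± 0.05 that had 1 sign in every replicate. The size of this difference changed with the processing. It was -0.19 with the log ratios of Feature Extraction, -0.24 with median centring in place of loess and -0.27 with a normexp offset of 10. By the dimmer probe the intensities, 8.26 to 9.12 and 8.98 to 9.90, overlapped between arrays, although each array had the higher value under the Nullscript label.

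The remaining Sfrp genes differed little. Sfrp4 had log2 ratios of 0.01, 0.12 and 0.08 in replicates 1, 2 and 3 with the Scriptaid label in Cy3, and of 0.34, 0.16 and 0.20 with the Scriptaid label in Cy5. Its mean of 0.15 ± 0.02 is 1.11-fold (limma adjusted p = 0.0117), and the intensities of both channels overlapped, 8.28 to 8.90 against 8.16 to 8.71. The call on Sfrp4 did not hold with the slide as a block (0.15, limma adjusted p = 0.0581), without replicate 3, which leaves slide 1 alone (0.16, adjusted p = 0.0786), or on the 3 arrays that carry the Scriptaid label in Cy3 (0.07, adjusted p = 0.312). Sfrp5, an antagonist of foregut and fat tissue, had -0.09, -0.04 and -0.04 in one orientation and 0.09, 0.03 and 0.15 in the other. The sign followed the dye on every array, and the mean of 0.02 ± 0.03 did not pass (limma adjusted p = 0.716). Its 95% confidence interval was -0.06 to 0.10, which is narrow beside the ratios of Sfrp1, Sfrp2 and Frzb but does not show that Sfrp5 was equal in both channels.

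In the Dkk family, the Lrp-binding members Dkk1 and Dkk2 were both higher under the Scriptaid label. The brighter probe of Dkk1, a target of Wnt signalling that inhibits it in turn, had log2 ratios of 1.32, 1.10 and 1.23 in replicates 1, 2 and 3 with the Scriptaid label in Cy3, and of 1.96, 1.59 and 1.91 with the Scriptaid label in Cy5. The second probe had 1.72, 1.22 and 1.50 in the first orientation and 1.39, 0.92 and 1.22 in the other. Every array showed Dkk1 higher under the Scriptaid label by both probes, and the probes leaned to opposite dyes. The means were 1.52 ± 0.16 (2.87-fold, limma adjusted p = 0.000227) and 1.33 ± 0.25 (2.51-fold, adjusted p = 0.000576), which differ by 0.19 ± 0.10 (SD, n = 3), but by -0.26 on the arrays with the Scriptaid label in Cy3 and by 0.64 on the others. The log2 intensity by the brighter probe was 10.85 to 11.73 against 9.67 to 10.02, and by the second 10.23 to 10.65 against 8.92 to 9.57, without overlap in either case. For both probes replicate 2 had the smallest ratio.

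Dkk2, which can inhibit or weakly promote Wnt signalling depending on the cell, had log2 ratios of 1.79, 1.12 and 1.47 in replicates 1, 2 and 3 with the Scriptaid label in Cy3, and of 1.90, 1.23 and 1.60 with the Scriptaid label in Cy5. Its log2 intensity was 9.63 to 10.71 under the Scriptaid label and 8.36 to 8.86 under the Nullscript label, without overlap. The orientations agreed to within 0.12 on average while the replicates spread more widely than those of any other member, with a mean of 1.52 ± 0.34 (2.86-fold, limma adjusted p = 0.000875).

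Dkk3, the divergent member, lay on the other side. Its log2 ratios were -0.71, -0.82 and -0.37 in replicates 1, 2 and 3 with the Scriptaid label in Cy3, and -0.87, -0.58 and -0.68 with the Scriptaid label in Cy5. The log2 intensity was 9.69 to 10.17 under the Scriptaid label and 10.44 to 10.99 under the Nullscript label, and these ranges did not overlap. The mean was -0.67 ± 0.13 (1.59-fold higher under the Nullscript label, limma adjusted p = 0.000901), with replicate 3 smallest. Wif1 also lay on that side. It had log2 ratios of -0.69, -0.40 and -0.48 in replicates 1, 2 and 3 with the Scriptaid label in Cy3, and of -0.57, -0.36 and -0.45 with the Scriptaid label in Cy5. Each array agreed in sign, and the mean was -0.49 ± 0.12 (1.41-fold, limma adjusted p = 0.00188). The intensities of Wif1 overlapped between arrays, 8.18 to 8.99 under the Scriptaid label and 8.87 to 9.55 under the Nullscript label.

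**Figure D2:**
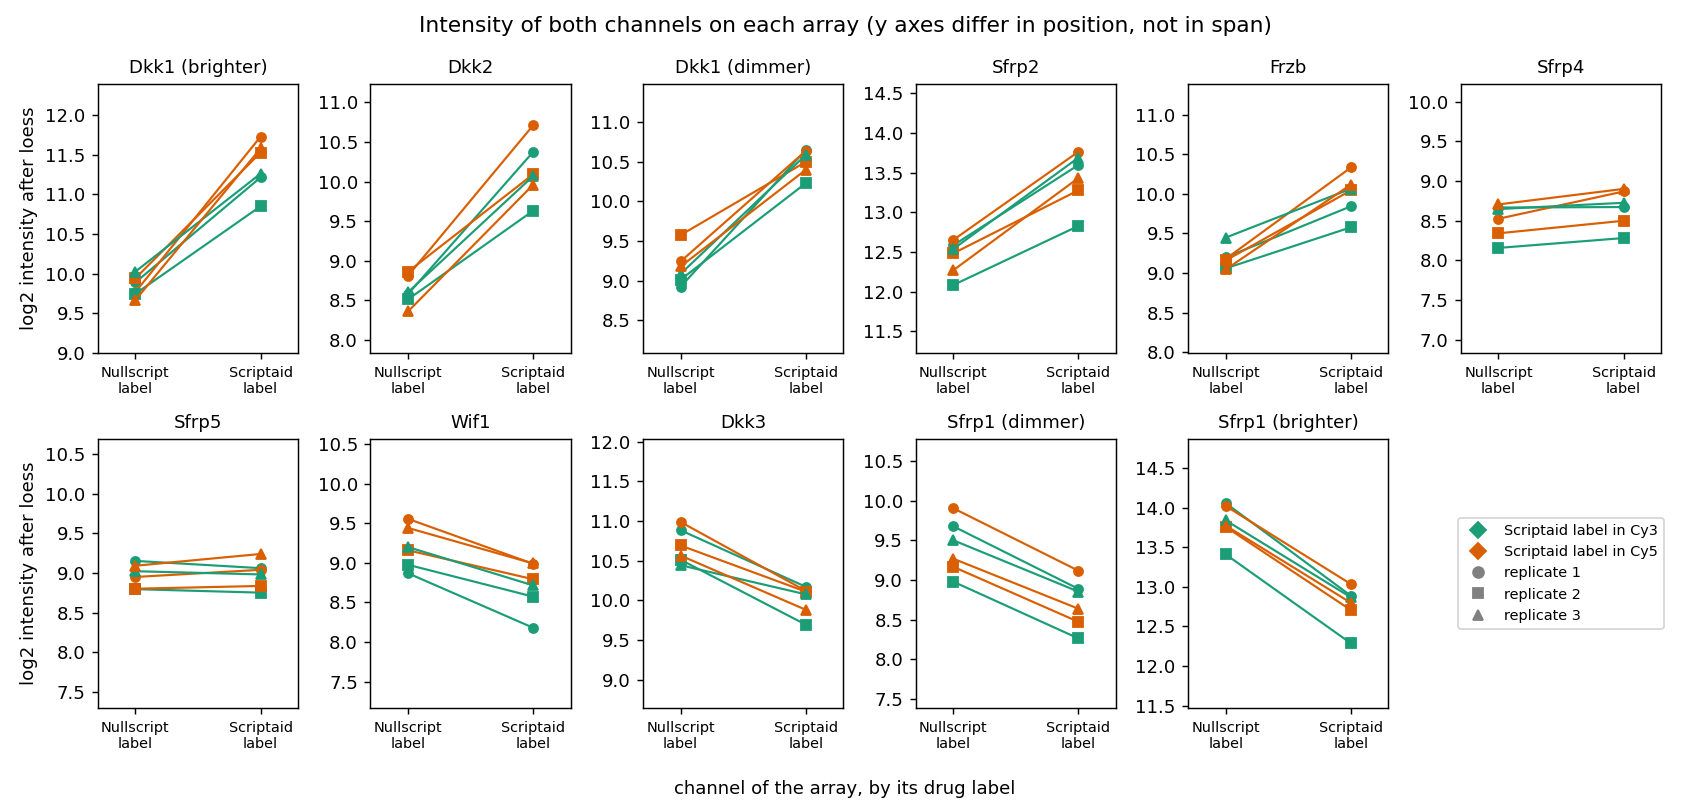
Normalised log2 intensity (y axis, each panel spanning the same range) under the Nullscript label and under the Scriptaid label (x axis) for each antagonist probe, with a line for each of the 6 arrays, coloured by dye orientation and marked by replicate. Lines rise on all arrays for Dkk1, Dkk2, Sfrp2, Frzb and Sfrp4, fall on all arrays for Sfrp1, Dkk3 and Wif1, and run nearly level for Sfrp5.

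Ordered by the ratio of the brightest probe, the members ran from Dkk1 and Dkk2 through Sfrp2, Frzb, Sfrp4, Sfrp5, Wif1 and Dkk3 to Sfrp1. The differences between neighbours in this order are log2 differences of ratios within the same replicates. Dkk1 and Dkk2 could not be placed, since they differed by 0.00 ± 0.19 with both signs among the replicates. Dkk2 exceeded Sfrp2 by 0.52 ± 0.23, Sfrp2 exceeded Frzb by 0.18 ± 0.12 and Frzb exceeded Sfrp4 by 0.66 ± 0.09. Further down, Sfrp4 exceeded Sfrp5 by 0.14 ± 0.05, Sfrp5 exceeded Wif1 by 0.51 ± 0.12, Wif1 exceeded Dkk3 by 0.18 ± 0.13 and Dkk3 exceeded Sfrp1 by 0.37 ± 0.08. These 7 differences had 1 sign in all replicates, but those between Sfrp2 and Frzb and between Wif1 and Dkk3 came down to 0.07 and 0.06 in single replicates. On the arrays with the Scriptaid label in Cy5 alone, Sfrp2 and Frzb differed by -0.01. The last place of Sfrp1 rests on its brighter probe, since by the dimmer one Dkk3 and Sfrp1 differed by 0.04 ± 0.06, with both signs among the replicates. The order is a description, and the differences between neighbours were not tested. Within the families the gap was wide, with Sfrp1 below Sfrp2 by 2.04 ± 0.16 and Dkk3 below Dkk1 by 2.19 ± 0.21 (SD, n = 3) on the log2 scale. These pairs are the lowest and highest members of each family in the order above. Both gaps use the brighter probe of Sfrp1 or Dkk1, and the dimmer probes had smaller ratios, -0.71 and 1.33. The brighter probe of Dkk1 also differed by 0.60 between the dye orientations.

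The replicates differed in the size of the response among the 1036 probes that passed with at least 2-fold, 2.63% of those tested. Over these probes, the median ratio of a replicate to the mean was 1.08, 0.886 and 1.03 for replicates 1, 2 and 3. This difference between replicates was not tested. Dkk1, Dkk2, Frzb and Wif1 had the same order of replicates. Sfrp2 was also smallest in replicate 2 but largest in replicate 3, while Dkk3, Sfrp4 and Sfrp1 by both probes were smallest in replicate 3. Of the 11 antagonist probes, 10 had 1 sign on all 6 arrays, beside 43.4% of all probes tested.

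The dye orientation changed the size but not the side of 2 antagonist probes. Frzb differed by 0.44 between the orientations (limma adjusted p = 0.0212) and the brighter probe of Dkk1 by 0.60 (adjusted p = 0.0193), both with larger ratios with the Scriptaid label in Cy5. Of all probes tested 3.82% showed such a difference. The second probe of Dkk1 leaned the other way, at -0.30 (limma adjusted p = 0.249). The mean of each orientation alone was 0.59 and 1.03 for Frzb, and 1.22 and 1.82 for the brighter probe of Dkk1. Each replicate mean holds both orientations equally.

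Genes whose ratios ran closest to each antagonist over the 6 arrays were found by the root mean square of the log2 differences, among 19132 genes with a current symbol and a value on every array. The distance is taken over single arrays, so a difference between dye orientations enters it. By its brighter probe, which differed by 0.60 between the orientations, Dkk1 had 4 genes within 0.2. The nearest were Pkd2, which encodes the channel polycystin-2, at a distance of 0.145 and a mean log2 ratio of 1.45 ± 0.22, and Hmga2, a chromatin protein of embryonic cells, at 0.147 and 1.39 ± 0.15. Dkk2 had 32 genes within 0.2, the nearest being Tox at 0.0899 and then Zc3hav1l, with a ratio of 1.46 ± 0.25. The other antagonists lay in denser parts of the array. For Sfrp1 the nearest were Clp1 at 0.0681 and Nme5 at 0.0800, with 169 genes within 0.2. Birc3 at 0.0677 and St6gal1 at 0.0779 were nearest to Sfrp2, with 272 within 0.2, and Snn at 0.0509 and Dip2c at 0.0672 to Frzb, with 192. Dkk3 lay closest to Tcea3 at 0.0971 and Mlxip at 0.106, with 174 within that distance. Wif1 lay closest to Nes, the intermediate filament gene nestin, at 0.0423 and to Ccdc151 at 0.0508, with 1119 within it. Sfrp4 lay closest to Emilin2 at 0.0330 and Tspan31 at 0.0400, among 5418 genes within 0.2, so that its neighbours say little. A small distance describes like ratios on these 6 arrays and nothing more.

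The rest of the pathway was counted by role, with the brightest probe of each gene. Of 83 genes tested in 5 lists, 35 were higher under the Scriptaid label and 19 under the Nullscript label (65.1% passed), with a median log2 ratio of 0.06. Over all 26498 genes tested 45.4% passed, 5889 and 6144 in these directions. By list, 50% of the other inhibitors and 50% of the receptors passed, which is near that share. The ligands had 73.7%, the genes inside the cell 72.2% and the target genes 90%. The 9 antagonists had a median of 0.15, and all genes tested had a median of -0.01. Without replicate 3, 12 of the 83 were higher under the Nullscript label and 25 under the Scriptaid label. Calls fell over the whole array as well. There they went from 8577 to 5317 probes under the Nullscript label and from 9245 to 6324 under the Scriptaid label.

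Among 14 other secreted and membrane inhibitors tested (Dkk4 did not pass the filter on background), 5 were higher under the Scriptaid label, 2 under the Nullscript label, and the median was 0.07. Dkkl1, the Dkk relative known as soggy, had a log2 ratio of -1.49 ± 0.12 (SD, n = 3), further from 0 on that side than any of the 9 antagonists. Kremen2, a Dkk receptor, had -0.33 ± 0.04. On the other side, Rnf43, a ligase that removes frizzled receptors, had 0.61 ± 0.04 by its brightest probe but -0.01 by its other probe, and Sostdc1, a secreted inhibitor of Wnt and BMP signals, had 0.55 ± 0.09. Shisa3, which holds frizzled proteins inside the cell, had 0.77 ± 0.38 and was saturated in 2 channel readings. Of the receptor partners of Dkk1 and Dkk2 in these lists, Kremen2 passed, as given above, and the other three did not. Lrp5 had -0.03 ± 0.35 (limma adjusted p = 0.875), Lrp6 -0.08 ± 0.15 (adjusted p = 0.368) and Kremen1 -0.06 ± 0.05 (adjusted p = 0.262). These 3 genes fall outside the rule for named genes and were added after their values were seen, to complete the partners of Dkk1 and Dkk2.

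The Wnt genes themselves were also split. Of 19, 8 were higher under the Scriptaid label and 6 under the Nullscript label, with a median of -0.01. Wnt2 had 1.38 ± 0.19 (SD, n = 3), Wnt4, the signal of nephron formation, 0.90 ± 0.17 and Wnt10a 0.41 ± 0.18. The other side held Wnt16 at -0.91 ± 0.16, Wnt9a at -0.60 ± 0.04, with -0.03 by its other probe, and Wnt3 at -0.33 ± 0.10, with -0.27 by its other probe. Of 22 receptors, co-receptors and R-spondins, 7 and 4 passed in these directions, with a median of 0.05. Rspo1, which strengthens Wnt signals at the cell surface, had 1.03 ± 0.03, Fzd1 0.74 ± 0.06 and the receptor kinase gene Ror1 0.74 ± 0.27, with 0.05 by its other probe. Fzd9 had -1.01 ± 0.19, Lgr4, a receptor for R-spondins, -0.42 ± 0.10 with other probes between -0.43 and -0.08, and Fzd5 -0.29 ± 0.09 with other probes between -0.16 and -0.01.

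Inside the cell, 8 of 18 pathway genes were higher under the Scriptaid label and 5 under the Nullscript label, with a median of 0.06. Pygo1 had 0.45 ± 0.17 (SD, n = 3), Axin1 0.45 ± 0.17 and Lef1, a partner of β-catenin on DNA, 0.41 ± 0.08 with 0.04 to 0.40 by other probes. Ctnnb1, which encodes β-catenin, had -0.56 ± 0.07 with -0.59 to -0.44 by other probes, and was saturated in 4 channel readings. Ctnnbip1, an inhibitor of β-catenin, had -0.71 ± 0.03 with values on 5 arrays, and Dvl1 had -0.32 ± 0.12 with -0.07 by its other probe. Of 10 target genes of β-catenin, 7 were higher under the Scriptaid label and 2 under the Nullscript label, with a median of 0.39. Sp5 had 0.78 ± 0.04 beside Ccnd1 and Myc, which were listed above among the HDAC inhibitor response, while Nkd1, a feedback inhibitor, had -0.36 ± 0.12 and Cd44 -0.14 ± 0.04 with -0.11 to -0.06 by other probes.

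**Figure D3:**
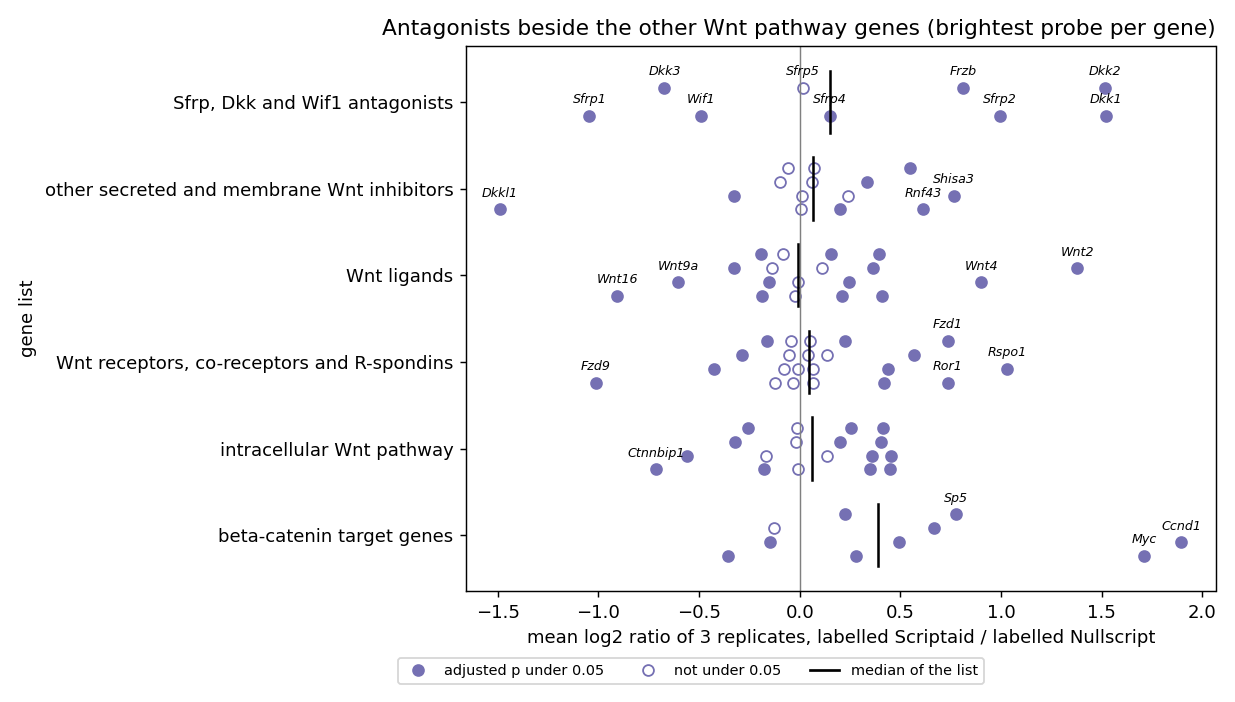
Mean log2 ratio of the 3 replicates (x axis) for the 9 antagonists and for each gene of the 5 other Wnt pathway lists (y axis), filled where the limma adjusted p was under 0.05, with a bar at the median of each list. The antagonists reach from -1.04 to 1.52 around a median of 0.15, and each of the other lists also has genes on both sides of 0.

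Markers of nephron progenitors, stroma, early nephron and endothelium mostly lay on the side of Dkk1, Dkk2, Sfrp2 and Frzb, and every marker listed was well above background in both channels of all arrays. For nephron progenitors 10 of 10 were higher under the Scriptaid label, with a median log2 ratio of 0.84. Over all genes tested, 5889 of 26498 were higher there. For stroma, the tissue known for Sfrp1, 8 of 10 were higher there and 1 went the other way, with a median of 0.60, while Sfrp1 itself had -1.04. That 1 marker was the collagen gene Col1a1 at -0.31 ± 0.15, singled out after its value was seen, with 6 saturated channel readings and other probes at -0.12 and 0.02. The mean log2 intensity of the stromal list per array was 13.24 to 13.83 under the Scriptaid label and 12.72 to 13.07 under the Nullscript label. That of the nephron progenitor list was 11.40 to 11.99 against 10.73 to 11.06. Neither list overlapped between the labels over the 6 arrays, which hold 3 replicates in both dye orientations. The share of all genes without such overlap is not given here. Of early nephron markers 6 of 7 were higher under the Scriptaid label (median 0.51; list intensity 10.80 to 11.19 against 10.36 to 10.67), as were 6 of 7 endothelial markers (median 0.66; 10.44 to 10.93 against 9.87 to 10.21). The ureteric bud list had 4 of 9 higher there and 1 in the other channel, with a median of 0.11 and overlapping intensities of 11.21 to 11.60 and 11.01 to 11.36. Other probes of some markers gave smaller values, with 0.00 for Pecam1, 0.03 for Kdr and 0.12 for Pdgfra. Some gave larger ones, with 0.83 for Osr1 in place of 0.10 and 0.48 for Tek in place of 0.03. These genes were picked after their values were seen. Wnt4 is also in the early nephron list, and Wnt9b and Wnt11 in the ureteric bud list. Of 6 adrenal and gonad markers, from tissue that can adhere to a dissected kidney, 1 was higher under the Nullscript label, the median was -0.05 and the intensities, 8.40 to 8.72 and 8.36 to 8.76, overlapped. The part of these markers in the ratios of the antagonists was not tested.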

How the data were processed

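Expression was measured on 6 Agilent arrays with 2 channels, as 3 biological replicates of 2 dye-swapped arrays each. Per the file headers, Agilent Feature Extraction 9.1.3.1 wrote the deposited files, which give the mean and background intensity of each spot in both channels and a log10 ratio of Cy5 over Cy3. The authors' deposited series value table matches, as log10 of the Scriptaid label over the Nullscript label, the scanner ratios to within 4.82e-06, with column medians of -0.00959 to -0.00136 and no further centring. The genome build behind the array design was not given in the sources used here.

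Each array held 45018 spots, 43379 of them not controls, of which 91.5% to 96.5% per channel were well above background. The number of arrays limits the precision. Intensities were corrected with normexp (offset 50) and normalised within arrays by loess (limma 3.58.1 under R 4.3.3). Control spots had weight 0, and 14 to 36 outlier spots per array were left out. Spots of a probe were averaged, ratios were turned to read Scriptaid label over Nullscript label, and the arrays of a replicate were averaged. Probes well above background for at least 1 of the drugs on 3 or more of the 6 arrays were tested, by lmFit and eBayes on the mean of 3 replicates against 0. The dye difference was fitted over 6 arrays with the replicate as a block. The fit was tested on simulated data.

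Of 41174 probes, 22951 were named by accession in the reference table, 6659 by symbol and 3109 by older symbol, and 8455 kept the array's name. A gene is represented by its brightest probe. The lists are other Wnt inhibitors, Wnt ligands, receptors, intracellular genes, β-catenin targets, genes rising or falling with HDAC inhibitors, and markers of stroma, nephron progenitors, early nephron, ureteric bud, endothelium, and adrenal and gonad. Named genes are all antagonist probes, up to 3 genes per direction and pathway list that passed with 1 sign in all replicates and had the largest ratios, all genes of the HDAC inhibitor lists, and the 2 nearest genes of each antagonist that passed. Members and lists were chosen with earlier results of these data known.

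The labels give the arrays of a replicate as the same biological replicate. Their deviations from the mean of their orientation correlated at 0.61, 0.13 and 0.01 (consensus 0.119). Log2 ratios correlated across probes, which are not independent, at 0.75 to 0.86 within a replicate, 0.87 to 0.94 between replicates with the same dyes and 0.73 to 0.83 with exchanged dyes. The alternatives covered background correction, normalization, ratio source, filters, outlier spots, replicate block, slide, dye orientation, probe choice and leaving out each replicate.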

Additional observations from a re-analysis of the deposited data

Results flagged for a closer look

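The ratios of 2 antagonist probes depended on which drug was labelled with which dye, by a test of that difference. Frzb had a log2 ratio larger by 0.44 with the Scriptaid label in Cy5 than with the Scriptaid label in Cy3 (limma adjusted p = 0.0212), at 1.03 ± 0.14 and 0.59 ± 0.07 (SD, n = 3). The brighter probe of Dkk1 had a difference of 0.60 (limma adjusted p = 0.0193), at 1.82 ± 0.20 and 1.22 ± 0.11. All 6 arrays showed both genes higher under the Scriptaid label. The second probe of Dkk1 had a difference of -0.30, which did not pass (limma adjusted p = 0.249). The cause was not tested.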

How the results depend on the processing

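The probes of Dkk1, Dkk2, Dkk3, Frzb, Sfrp1, Sfrp2 and Wif1 kept their direction and stayed past the threshold under every alternative run, which were 14 for the dimmer probes of Dkk1 and Sfrp1 and 15 for the others. Sfrp4 kept its direction, with 0.07 to 0.23 and adjusted p values of 0.00971 to 0.312, and lost its call under 3 of 15. Sfrp5, which did not pass under any of the 15, turned to -0.029 with the log ratios of Feature Extraction and with the series value table and to -0.0587 on arrays that carry the Scriptaid label in Cy3, and ranged from -0.00262 to 0.0266 without 1 replicate. Where all 11 antagonist probes were tested, 5 or 6 passed as higher under the Scriptaid label and 4 under the Nullscript label. By the brightest probe of each gene, adjusted over genes, 5 and 3 of the 9 genes passed in these directions. With the replicate block 6 and 4 antagonist probes passed, and 9858 and 8988 probes on the whole array. The block changed no call on an antagonist. With the brightest probe of each gene, adjusted over genes, 5962 genes passed on the side of the Scriptaid label, as fewer features were tested. Leaving out 1 replicate gave 5317 to 7783 probes higher under the Nullscript label, and 12 to 19 genes of the 5 pathway lists, the lowest without replicate 3, which leaves 2 replicates of slide 1. Slide 2 holds 1 replicate, so no value within it was tested. With median centring in place of loess, 6 antagonist probes differed between dye orientations in place of 2, and the cause was not tested. The share of all probes that differed in this way under median centring is not given here. The count is therefore no result about the antagonists. No alternative moved the median log2 ratio of all probes further from 0 than -0.04. With the log ratios of Feature Extraction the dimmer probe of Sfrp1 went from -0.71 to -0.85 and Wif1 from -0.49 to -0.60. Dkk2 went from 1.52 to 1.69, while Sfrp4 stayed at 0.15. The cause of these shifts was not tested.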
